A study of Mus musculus with 24 samples.

Results

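The 39 Hox genes were taken from all 46078 genes counted in each of the deposited gene count tables, by a gene symbol of Hox followed by a cluster letter from a to d and a number. No measured value entered this choice. The tables held 24 RNA-seq libraries from mice on a C57BL/6 background, with 3 libraries in each of 8 groups. Heterozygous mice carried 1 floxed GFP-PR28 allele together with Thy1-Cre. GFP-PR28 encodes a GFP-tagged proline-arginine dipeptide repeat of the kind made from the C9orf72 repeat expansion of amyotrophic lateral sclerosis and frontotemporal dementia, and Thy1-Cre switches it on in neurons only. Their controls, labelled WT, were littermates that carried the same floxed allele without Thy1-Cre, so both genotypes shared the allele. Cerebellum was taken at 2 and 5 months, and cortex and spinal cord at 6 months. The labels give the cord as spinal cord, and the study's methods give its lumbar part. The transgene itself was not analysed here. Nothing in the labels beyond separate library names says how the replicates of a group were raised or handled, so that the p-values measure the spread between these libraries.

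Hox genes encode homeodomain transcription factors that give cells of the embryo their position along the head-to-tail axis. Mammals carry them in 4 clusters, and genes at the same place in different clusters form 13 paralog groups, of which the low-numbered ones are expressed from the hindbrain backwards and the high-numbered ones only towards the tail. The forebrain lies in front of all Hox expression domains. In the spinal cord they set the identity of motor neuron columns and pools, and adult spinal cells keep part of the pattern.

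By the GRCm38 (mm10) annotation, the Hoxa cluster held 11 of the genes on chromosome 6 (52155590 to 52260880, minus strand) and the Hoxb cluster 10 on chromosome 11 (96194316 to 96368256, plus strand). The Hoxc cluster held 9 on chromosome 15 (102921103 to 103036852, plus strand) and the Hoxd cluster 9 on chromosome 2 (74668310 to 74765142, plus strand). Exons of 16 of the 39 genes overlap exons of another gene, on the opposite strand for 10 and on the same strand for 9. The strand setting of the counting is not given in the sources used here, so the counts of these 16 genes are uncertain where the exons overlap. Among genes named below they include Hoxa11 (with Hoxa11os), Hoxc10 (with Hoxc5), Hoxa7 (with Hoxaas3), Hoxa9 (with Mir196b), and Hoxd10 and Hoxd11 (both with Gm28309). Hoxa2, Hoxa3, Hoxb3, Hoxa4, Hoxb5, Hoxd3 and Hoxd4 are also among them.

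The clusters also hold microRNA genes whose products pair with Hox transcripts, and their mature sequences are shown because they tie the clusters to their own messages. The sequences are those of RefSeq for GRCm38.p6, with the seed (bases 2 to 8) in capitals.
miR-10a-5p: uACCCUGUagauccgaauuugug
miR-10b-5p: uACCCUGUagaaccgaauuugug
miR-196a-5p: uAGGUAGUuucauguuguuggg
miR-196b-5p: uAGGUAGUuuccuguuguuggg
The first pair shares one seed and the second pair another. miR-10a lies at chr11:96317186-96317208 in the Hoxb cluster and miR-10b at chr2:74726074-74726096 in the Hoxd cluster. miR-196a is encoded at chr11:96265187-96265208 and at chr15:102973365-102973386, and miR-196b at chr6:52230129-52230150 on the minus strand. The 7-base match to the miR-196 seed, ACTACCT, occurred in the annotated 3′ UTR of 9 of the 39 Hox genes (23.1%; among them Hoxb1, Hoxa4, Hoxa5, Hoxb6, Hoxa7 with 4 matches, Hoxb7, Hoxc8 and Hoxa9), against 6.09% of 21024 genes with a 3′ UTR. The match to the miR-10 seed, ACAGGGT, occurred in 4 (among them Hoxd1, Hoxa3 and Hoxb3), against 12.5% of all genes. The median 3′ UTR was 966 bases for Hox genes and 960 for all. The Hoxb8 3′ UTR holds the known miR-196a target site at chr11:96284888-96284909 on the plus strand, printed with bases complementary to miR-196a in capitals.
Hoxb8 site: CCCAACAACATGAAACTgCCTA
There, 21 of 22 bases are complementary. These matches describe sequence and not regulation in these samples.

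Promoter sequences from RefSeq were given for 22 of the 39 genes. The 250 bases upstream of the annotated start are shown for Hoxb8, which had the highest level per length in the cord, and for Hoxd10 and Hoxd11, neighbours in one cluster that stood at very different levels there. Capitals mark matches on either strand to TTTATG, a site of the kind bound by caudal-type and posterior Hox factors, or to TGATNNAT, of the kind bound by Hox-Pbx pairs, and these motifs were found in 10.8% and 7.68% of all 32851 promoters.
Hoxb8, chr11:96281655-96281904, plus strand: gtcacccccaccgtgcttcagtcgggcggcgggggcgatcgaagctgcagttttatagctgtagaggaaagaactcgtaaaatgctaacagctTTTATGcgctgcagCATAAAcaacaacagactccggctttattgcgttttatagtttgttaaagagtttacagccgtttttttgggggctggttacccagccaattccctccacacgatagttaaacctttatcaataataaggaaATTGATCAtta
Hoxd10, chr2:74691641-74691890, plus strand: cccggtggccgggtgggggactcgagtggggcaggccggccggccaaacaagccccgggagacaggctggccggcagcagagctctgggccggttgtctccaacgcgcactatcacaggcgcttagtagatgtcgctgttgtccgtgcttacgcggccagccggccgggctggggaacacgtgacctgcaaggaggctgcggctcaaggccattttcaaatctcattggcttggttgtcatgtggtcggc
Hoxd11, chr2:74682073-74682322, plus strand: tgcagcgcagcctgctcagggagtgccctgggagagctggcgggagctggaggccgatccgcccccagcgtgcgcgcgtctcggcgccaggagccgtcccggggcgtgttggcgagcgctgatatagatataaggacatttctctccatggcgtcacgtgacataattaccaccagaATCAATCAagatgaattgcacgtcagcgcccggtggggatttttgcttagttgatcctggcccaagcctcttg
The Hoxb8 window held 3 matches, the Hoxd11 window 1 and the Hoxd10 window 0. Over the Hox genes matched, TTTATG was found for 5 (Hoxa7, Hoxb8, Hoxd11, Hoxd3 and Hoxd4) and TGATNNAT for 4 (Hoxa2, Hoxb1, Hoxb8 and Hoxd11). The TTTATG match of Hoxd11 lies upstream of another annotated start, in a window at chr2:74679308-74679557 that is not shown. The median GC content of Hox promoters was 58.6%, against 52.4% for all.

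The libraries held between 12835400 and 16327811 counted reads in cerebellum and between 17084506 and 25490124 in cortex and spinal cord. Tissue markers followed the labels. Chat, which makes acetylcholine in motor neurons, was at 31.7 to 39.8 counts per 1000000 (CPM) in spinal cord and no more than 4.57 elsewhere. The sum over 5 cortex marker genes was 415 to 522 CPM in cortex and 5.58 to 11.4 CPM in cord, and Gabra6, of cerebellar granule cells, was at 567 to 870 CPM in cerebellum. Several libraries of the spinal cord stood apart in markers of tissue around it. In control libraries 1 to 3 and then heterozygous libraries 1 to 3, the sum over 3 Schwann cell genes was 580, 1493, 1023, 304, 1977 and 2207 CPM. For 5 sensory ganglion genes it was 28.1, 102, 36.2, 39.5, 197 and 48.9 CPM, and for 8 skeletal muscle genes 8.70, 2.91, 15.6, 3.37, 189 and 20.8 CPM. For 5 meningeal fibroblast genes it was 179, 239, 173, 79.4, 465 and 298 CPM. Outside the cord, control library 9 of the 5-month cerebellum had a skeletal muscle sum of 239 CPM, against a median of 1.95 CPM over cerebellar libraries. Counting with and without single libraries is given beside the results below.

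Hox transcripts were abundant in spinal cord and close to the limit of detection in cortex and cerebellum. Summed over the 39 genes, control spinal cord libraries stood at 1028, 1051 and 1129 CPM, a mean of 1069 ± 52.8 (SD, n = 3). Control cortex stood at 0.345, 2.10 and 0.602 CPM, a mean of 1.01 ± 0.946 (SD, n = 3), which is 0.0949% of the control cord. Heterozygous cortex stood at 1.43, 0.226 and 0.464 CPM. The 12 cerebellar libraries lay between 0.145 and 1.41 CPM with a median of 0.491. No cord library came near any brain library. Cerebellum was counted in a table of its own and normalised separately, and its mice were younger, so tissue, table and age cannot be told apart in that contrast and no test was made. In bulk tissue fewer cells of a type and less RNA per cell cannot be told apart.

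**Figure D1:**
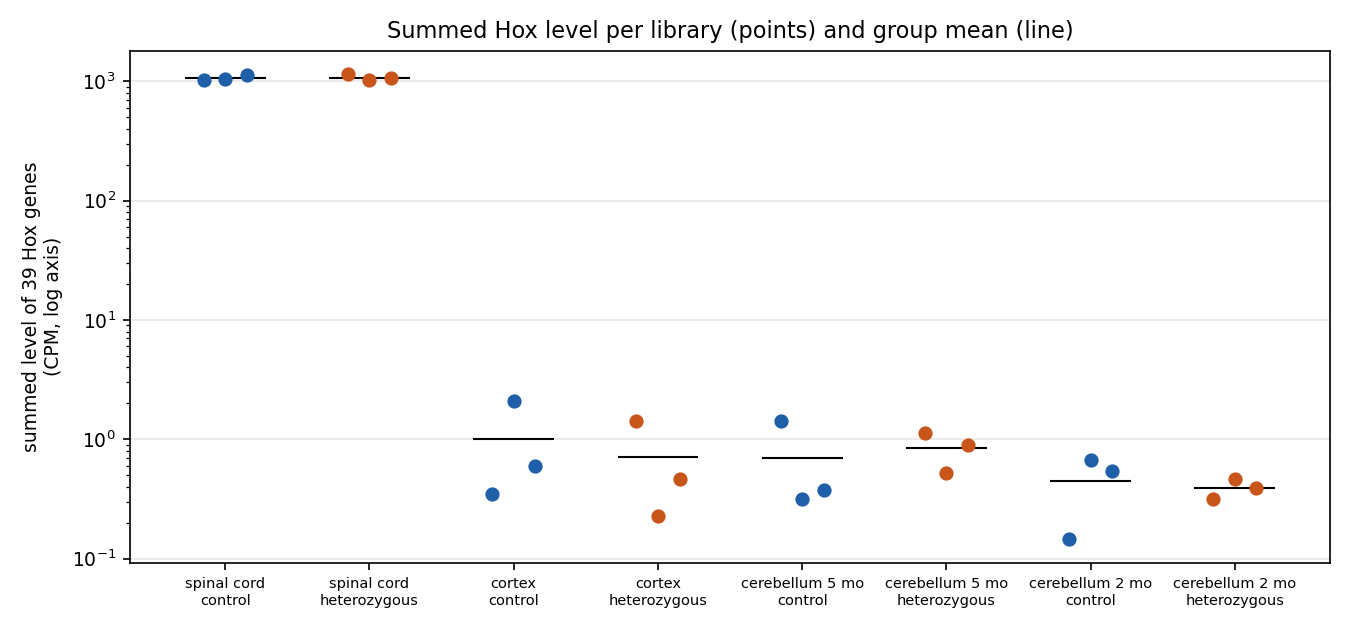
Summed level of the 39 Hox genes in each of the 24 libraries, in counts per 1000000 (CPM) on a log axis, by tissue, age and genotype, with 3 libraries per group. Every spinal cord library lies above 1000 CPM, and cortex and cerebellum lie between 0.145 and 2.10 CPM.

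Between control spinal cord and control cortex, 32 of the 39 genes had enough reads to be tested. All 32 were higher in cord (edgeR quasi-likelihood test, highest adjusted p = 0.00161), where 20.8% of all 17416 genes tested were called higher. In heterozygous mice 33 of 33 tested genes were higher in cord (highest adjusted p = 0.0148), and 27.7% of all genes were called higher. No Hox gene reached the minimum count of the filter in any cortex library. All of these 32 and 33 genes therefore passed the filter through the cord alone, which fixed their direction. The shares over all genes include genes that could pass through either tissue, so they are no background for these counts. Both counts say no more than that these genes were measured in the cord. The 7 genes left untested in controls were Hoxb1, Hoxc12, Hoxd12, Hoxa13, Hoxb13, Hoxc13 and Hoxd13.

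The 6 Hox genes with the most reads in control cord show the size of the step. Hoxb8, which acts in dorsal horn circuits and in a myeloid lineage, had a mean of 238 ± 22.1 CPM in control cord and 0.209 ± 0.221 CPM in control cortex (SD, n = 3 each). Its pooled reads numbered 15532 in cord and 12 in cortex, a ratio of 1132 with a 95% counting interval of 648 to 2192. Hoxb9, a thoracic to lumbar gene, had 6227 and 3 reads, a ratio of 1816 (621 to 8809). Hoxc10, of the lumbar motor columns, had 5506 reads and 1, a ratio of 4818 (864 to 190317). Hoxa7, a gene of the trunk, had 4219 and 10 reads, a ratio of 369 (201 to 770). Hoxa9, which acts in the trunk and in blood progenitors, had 4072 and 2 reads, a ratio of 1781 (493 to 14715), and Hoxb6 had 3607 and 4, a ratio of 789 (308 to 2897). With so few cortical reads these intervals are wide, and of all pairs among the 6 genes the intervals of Hoxa7 and Hoxc10 alone did not overlap. They are exact binomial intervals and cover counting error only. Control cortex library 2 gave 9 of the 12 reads of Hoxb8 and 6 of the 10 of Hoxa7. Without it the ratio was 2973 (1017 to 14419) for Hoxb8, 606 (236 to 2224) for Hoxa7 and 3576 (642 to 141265) for Hoxb9, and Hoxc10 had no cortical read left. In control cortex 22 of the 39 genes had no read in any library. For the 15 of them that were tested, the cord level of the most abundant was at least 589-fold higher, taking 3 reads over the cortex group as the floor. In single libraries a floor of 3 reads corresponds to 0.150 to 0.174 CPM in cortex and 0.179 to 0.231 CPM in cerebellum.

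The few Hox reads of the brain came from different parts of the clusters in the regions compared. The 12 cerebellar libraries held 107 Hox reads in all, between 2 and 21 per library, from 20 of the genes. Of these, 94 fell in paralog groups 1 to 5, a share of 87.9% (exact 95% interval 80.1 to 93.4%). Intervals of these shares pool reads over libraries and cover counting error only, not the spread between libraries. Without control library 7 of the 5-month cerebellum, which alone held 21, the share was 84.9%. It was 88.2% in control and 87.5% in heterozygous cerebellum. Hoxd1, Hoxa3 and Hoxb3 had 13 reads each, and Hoxa2, which patterns the hindbrain, and Hoxa4 had 10 each. Of these, Hoxa3, Hoxb3, Hoxa2 and Hoxa4 have exons that overlap exons of other genes, so their reads are uncertain there. The 6 cortical libraries held 96 Hox reads from 24 genes, of which 29 (30.2%, 21.3 to 40.4%) fell in groups 1 to 5. The share was 23.7% (13.6 to 36.6%) in control and 40.5% (24.8 to 57.9%) in heterozygous cortex, with overlapping intervals. The leading genes there were Hoxa7 with 13 reads and Hoxb8 with 12. Control cortex library 2 held 41 of the 96, and without it the share was 36.4%. In spinal cord the share was 16.2%, so that cortical Hox reads stood nearer the cord's share than cerebellar ones did. Slc6a5, the glycine transporter of inhibitory neurons of the cord and brainstem, was at 447 to 493 CPM in cord, 40.9 to 54.5 CPM in cerebellum and 0.20 to 0.72 CPM in cortex, with the highest cortical value in control library 2. The sum over 4 brainstem marker genes, Slc6a5 among them, was instead highest in control cortex library 1, which held 6 Hox reads. It was 1.84 CPM there and 1.79 CPM in control cortex library 2. Whether RNA from another tissue contributed to the Hox reads of the brain was not tested. No gene reached 10 reads in any brain library, the highest being 9 for Hoxb8 in cortex and 5 in cerebellum.

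Within the cord, levels were low at both ends of the clusters and highest in paralog groups 8 to 10. Dividing by exon length to compare genes, control cord held 1.10 ± 0.286 CPM per kilobase (kb) in group 1, 3.59 ± 0.198 in group 2, 8.27 ± 0.499 in group 3 and 17.9 ± 0.810 in group 4 (SD, n = 3). Groups 5, 6 and 7 followed at 33.4 ± 1.71, 45.4 ± 2.02 and 39.7 ± 1.22 CPM per kb. The highest was group 8 at 123 ± 7.50 CPM per kb, which made up 28.6% of the Hox total. Group 10 at 74.2 ± 11.7 (17.3%) and group 9 at 70.8 ± 0.816 (16.5%) differed by less than the spread of group 10. Groups 11, 12 and 13 held 9.26 ± 5.65, 2.66 ± 2.53 and 0.539 ± 0.474 CPM per kb. By cluster, Hoxb made up 46.2% of the total, Hoxc 20.8%, Hoxa 19.1% and Hoxd 13.9%. The lead of group 8 came from Hoxb8 alone, since Hoxd8 and Hoxc8 were at 18.1 and 14.0 CPM per kb. With the longest transcript as the length, group 7 rose to 52.4 CPM per kb and passed group 6 at 49.7, and group 8 still led.

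**Figure D2:**
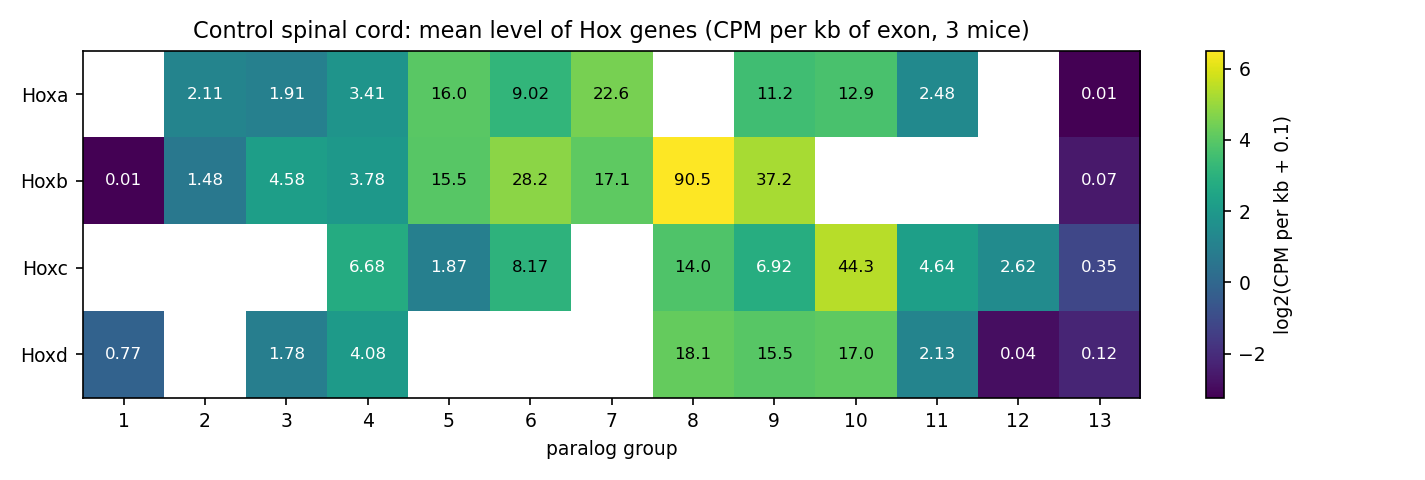
Mean level of Hox genes in the 3 control spinal cord libraries, in CPM per kilobase of exon, with the 4 clusters as rows and the 13 paralog groups as columns, where blank cells have no gene or one that is not reported. Hoxb8 is highest at 90.5 CPM per kb, and the genes of groups 11 to 13 are low in all clusters.

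Single genes followed the same shape. Hoxb8 led with 83.2, 88.6 and 99.7 CPM per kb in control cord libraries 1 to 3, and its range did not meet that of any other Hox gene. Hoxc10 had 38.2, 45.2 and 49.4 and Hoxb9 had 36.1, 36.8 and 38.6 CPM per kb, and these overlapped. Hoxb6 (28.2 ± 0.439) and Hoxa7 (22.6 ± 1.14) came next, each apart from its neighbours in the order. Hoxd8, Hoxb7, Hoxd10, Hoxa5, Hoxb5, Hoxd9 and Hoxc8 lay between 18.1 and 14.0 CPM per kb without a gap. Of the 38 neighbouring pairs in this order, 8 did not overlap. Hoxa5 at 16.0 and Hoxc6 at 8.17 CPM per kb, which specify cervical phrenic and forelimb motor neurons in the embryo, were thus detected in this cord, as was Hoxd1 at 0.774, of a paralog group that marks the hindbrain. The lowest were Hoxd13, Hoxb13, Hoxd12, Hoxb1 and Hoxa13, from 0.115 down to 0.006 CPM per kb. By its mean, the Hoxc gene was the highest in every paralog group from 10 to 13. In control library 1, however, Hoxa11 (1.70 CPM per kb) stood above Hoxc11 (1.13), and Hoxd13 (0.075) above Hoxc13 (0).

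The comparison of heterozygous with control spinal cord asks whether neuronal GFP-PR28 moved these genes, and none of them passed the test. The Hox sum was 1150, 1019 and 1057 CPM in heterozygous libraries, a mean of 1075 ± 67.8 against 1069 ± 52.8 in controls, and the groups overlapped. Of 34 genes tested, 0 were called in either direction (edgeR, adjusted p under 0.05 and a log2 change above 0.2), where 0.103% of all 17522 genes tested were called higher and 0.00571% lower. At an unadjusted p under 0.05 there were 2 of the 34, against 6.48% of all genes, and with DESeq2 there were 0 called and 0 at that unadjusted level. The log2 change was positive for 17 and negative for 17, with a median of -0.01 against 0.01 for all genes. It was smaller than 0.2 in size for 25 of the 34. Its standard error ranged from 0.07 to 1.33 with a median of 0.13. The largest standard errors were those of Hoxc13 and Hoxc12, for which large changes could be missed. Leaving out any 1 library gave 0 called. Without control library 1 or 2 or heterozygous library 2 or 3, however, no gene of any kind was called. The lowest adjusted p among the edgeR fits without 1 library was 0.0502, for Hoxd8 without heterozygous library 1. That fit called 399 genes higher and 244 lower over all genes, against 18 and 1 with all libraries.

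**Figure D3:**
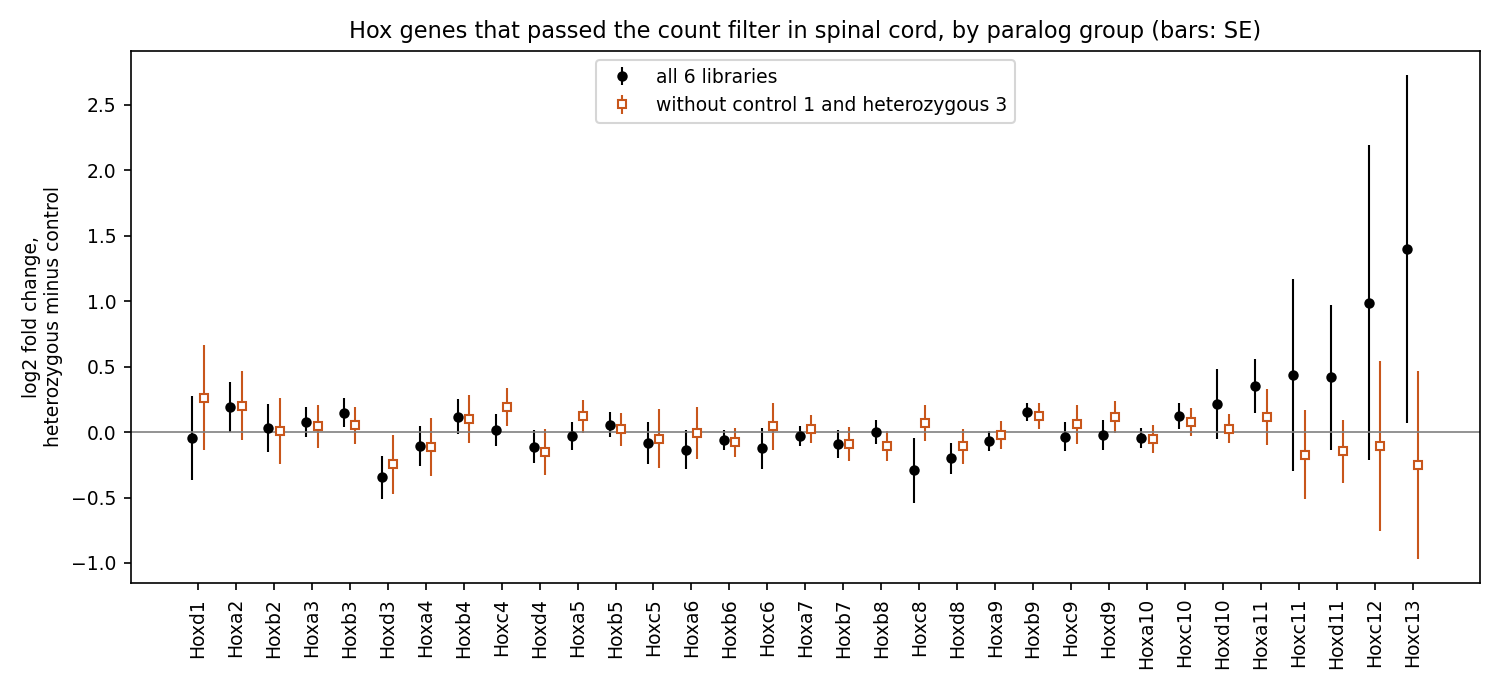
Log2 fold change of heterozygous against control spinal cord for 33 of the 34 Hox genes tested, by paralog group, with bars of 1 standard error, for all 6 libraries and without control library 1 and heterozygous library 3. Changes in groups 2 to 10 lie between -0.35 and 0.22. The positive values of groups 11 to 13 have wide errors and turn negative for 4 of the 5 genes in the fit without these libraries. The libraries left out hold the lowest control and highest heterozygous values of these 5 genes, which lowers the changes by construction.

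The most abundant Hox genes lay close together in the 2 genotypes. Hoxb8 averaged 238 ± 22.1 CPM in control and 237 ± 25.5 CPM in heterozygous cord, a log2 change of 0.00 (SE 0.09). Hoxc10 averaged 84.5 ± 10.8 and 91.4 ± 8.43 CPM (log2 change 0.12, SE 0.10), and Hoxa7 averaged 65.0 ± 3.29 and 63.3 ± 3.98 CPM (-0.03, SE 0.08). Their groups overlapped. The control and heterozygous ranges did not overlap for 3 of the 34 genes (11.4% of all genes tested), 2 of them higher (5.45% of all) and 1 lower (5.97%) in heterozygous cord. Hoxb9 had 92.9, 94.8 and 99.5 CPM in controls against 108, 103 and 106 CPM in heterozygous libraries, a log2 change of 0.15 (SE 0.07, unadjusted p = 0.0429 and adjusted p = 0.756 in the edgeR fit, exact permutation p = 0.1). Hoxa4 had 5.29, 5.44 and 5.56 CPM against 5.08, 5.08 and 4.88 CPM, a log2 change of -0.11 (SE 0.15, edgeR adjusted p = 0.938). Its exact permutation p was also 0.1, two-sided for each gene and the smallest that 3 against 3 allows. Scaled by the total counts in place of TMM factors, Hoxa2 was added to these genes. Exons of Hoxa4 and of Hoxa2 overlap exons of other genes.

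By position along the cluster, the tested genes split into 14 of groups 1 to 5, 15 of groups 6 to 10 and 5 of groups 11 to 13. In groups 1 to 5, 8 were positive and 6 negative with a median log2 change of 0.02. In groups 6 to 10, 4 were positive and 11 negative with a median of -0.04, and without control library 1 and heterozygous library 3 the counts were 8 and 7. In groups 11 to 13 all 5 were positive with a median of 0.43, and without these libraries 1 was positive and 4 were negative with a median of -0.15. None of these directions is a call. The 2 libraries were chosen after the values below had been seen. For the 5 genes of groups 11 to 13, control library 1 was lowest in all and heterozygous library 3 highest in 4. Leaving them out therefore lowers these log2 changes by construction, and the turn in sign is not a test.

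For the 5 caudal genes tested, the range within the control libraries was wider than the difference between the genotype means. Control library 1 had the lowest and heterozygous library 3 the highest values of most of them. Hoxc11, a gene of the lumbar to sacral cord, had 2.29, 8.83 and 17.0 CPM in control libraries 1 to 3 and 10.3, 12.6 and 14.8 CPM in heterozygous libraries 1 to 3. Its log2 change was 0.43 (SE 0.73), and -0.028 without control library 1. Hoxd11, which acts with Hoxa11 in the hindlimb segment of the cord, had 3.46, 9.45 and 14.0 CPM against 8.62, 12.5 and 14.6 CPM (log2 change 0.42, SE 0.55). Hoxa11 had 3.88, 5.82 and 7.32 CPM against 6.96, 7.25 and 7.36 CPM (log2 change 0.35, SE 0.20). For all 3 genes the lowest value was that of control library 1 and the groups overlapped, and for Hoxc11 control library 3 stood above every heterozygous library.

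The genes nearest the tail end varied most. Hoxc12 had 0.047, 2.91 and 5.16 CPM in controls and 1.88, 5.48 and 8.54 CPM in heterozygous libraries (log2 change 0.99, SE 1.21). Hoxc13, best known from hair and nails, had 0, 0.668 and 1.90 CPM against 0.456, 1.62 and 4.63 CPM (log2 change 1.40, SE 1.33). Hoxb13, expressed at the tail end of the cord, was too low to test and had 0.140, 0.191 and 0.132 CPM against 0, 0 and 2.48 CPM. Its 59 reads in heterozygous library 3 stood against at most 4 in any other cord library. Hoxa13 was at 0, 0 and 0.044 CPM in controls and at 0, 0.147 and 0.757 CPM in heterozygous libraries. Without control library 1 and heterozygous library 3 the log2 change was -0.25 for Hoxc13, -0.11 for Hoxc12, -0.17 for Hoxc11, -0.15 for Hoxd11 and 0.11 for Hoxa11. Leaving out the lowest control and the highest heterozygous value lowers each of these changes by construction.

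**Figure D4:**
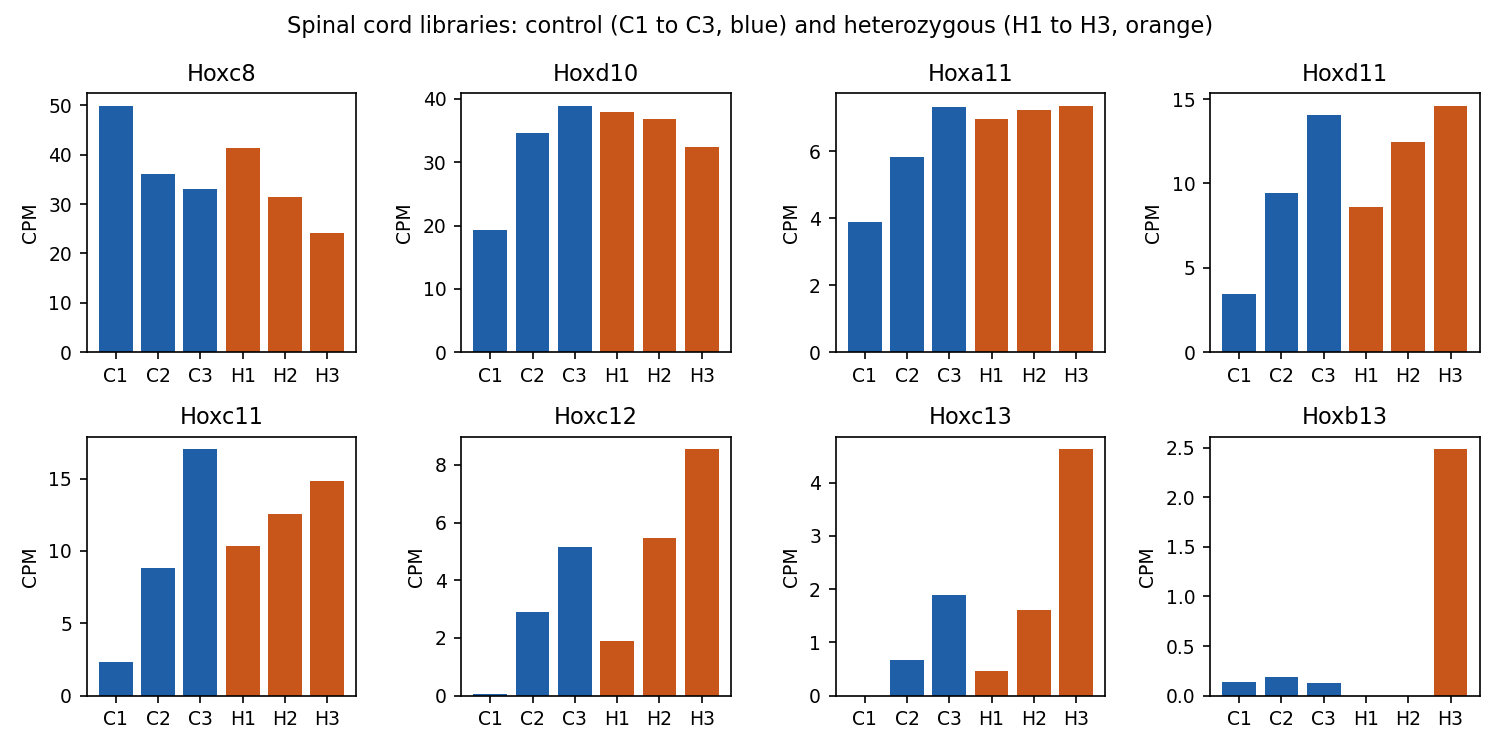
CPM of 8 Hox genes in each spinal cord library, with controls as C1 to C3 and heterozygous as H1 to H3, on a linear axis from 0 for each gene. C1 is lowest for Hoxa11, Hoxc11, Hoxd11, Hoxc12 and Hoxc13, H3 is highest for all of these genes but Hoxc11, and Hoxc8 is highest in C1 and lowest in H3.

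Summed over groups 11 to 13, the level was 10.0, 28.1 and 46.4 CPM in control libraries 1 to 3 and 28.5, 39.9 and 54.0 CPM in heterozygous libraries 1 to 3. That is between 0.974% and 5.11% of all Hox reads of a library. Groups 1 to 9 together were nearly level, at 884, 861 and 905 CPM in controls and 941, 812 and 847 CPM in heterozygous libraries. The ratio of the highest to the lowest of the 6 libraries had a median of 1.31 over the 26 tested genes of groups 1 to 9, the same as over all tested genes. It was 1.90 for Hoxa11, 4.22 for Hoxd11, 7.43 for Hoxc11 and 182 for Hoxc12, which has a single read in control library 1. Ratios at least as large were found for 18.7%, 3.36%, 1.42% and 0.154% of all tested genes in the same order. Control library 1 was the lowest of the 6 for all 5 tested genes of groups 11 to 13, against 16.0% of all tested genes, and heterozygous library 3 was the highest for 4 of the 5, against 16.5%. These genes share 2 libraries and are not independent of one another.

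Hoxc8, which specifies forelimb motor pools and ends further forward, was highest in control library 1 and lowest in heterozygous library 3, with 49.9, 36.1 and 33.1 CPM in controls and 41.3, 31.4 and 24.2 CPM in heterozygous libraries (log2 change -0.29, SE 0.25). Without control library 1 its log2 change was -0.093, and without both of these libraries it was 0.069. Leaving out the highest control and the lowest heterozygous value raises this change by construction. Hoxd10, of the lumbar motor columns, had 19.3, 34.5 and 38.9 CPM against 37.9, 36.8 and 32.3 CPM (log2 change 0.22, SE 0.27), with control library 1 alone standing low, and its log2 change was -0.032 without that library. The Schwann cell sum was lowest in heterozygous library 1 and next lowest in control library 1 and was highest in heterozygous library 3, and the muscle and sensory ganglion sums were highest in heterozygous library 2. Gabra6 was at 18.3 CPM in control library 1 and 17.2 in heterozygous library 3, against 0.52 to 4.63 CPM in the other cord libraries. Gabra6 is 1 of 5 cerebellum marker genes, whose sum was 76.5, 53.7 and 82.0 CPM in controls. In heterozygous libraries that sum was 58.1, 75.2 and 133 CPM, so control library 1 did not stand apart in it. The part of these markers in the caudal values was not tested. The 6 motor neuron markers summed to 299, 334, 296, 304, 298 and 253 CPM. The cranio-caudal position of each dissection is not given in the sources used here and its part in these values was not tested.

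In cortex and in cerebellum at both ages no Hox gene passed the filter on low counts, so the genotype comparison had no tested member. Without the filter 24, 17 and 14 genes had a read in cortex, 5-month and 2-month cerebellum, and edgeR called 0 of them, with 1, 0 and 0 at an unadjusted p under 0.05. The 1 gene was Hoxb8 in cortex (edgeR adjusted p = 0.252), whose 12 reads were all from control libraries. The shares over all genes in these unfiltered fits are not given here, so the counts are not read as a result about Hox genes.

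Other genes of the clusters, many of them noncoding, were measured beside the Hox genes. Of 47 such annotated genes, 36 had a read in spinal cord, and 0 of the 19 tested were called between genotypes (edgeR, lowest adjusted p = 0.660), against 0.108% of all genes tested. Hotair, a noncoding RNA between Hoxc11 and Hoxc12, had 10, 101 and 141 reads in control cord libraries and 80, 174 and 151 in heterozygous ones, again lowest in control library 1. Hoxa11os, antisense to Hoxa11, had 43, 72 and 90 reads against 86, 129 and 121 (log2 change 0.65, SE 0.23, edgeR adjusted p = 0.660). Hotairm1, from the other end of the Hoxa cluster, was steady at 97 to 135 reads. The precursor gene of miR-196a on chromosome 11 (Mir196a-1) had 24 to 39 reads in each cord library and 0 in cortex and cerebellum, while the genes of miR-10a and miR-10b had 1 to 4 reads in each cord library. Mature microRNAs are not measured by these libraries.

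Hox proteins bind DNA with cofactors of the Pbx, Meis and Pknox families, and Polycomb and trithorax proteins, retinoic acid enzymes and receptors and the Cdx factors control the clusters. Of 9 cofactor genes, 0 were called between genotypes in the cord (edgeR, lowest adjusted p = 0.882, median log2 change 0.02). Against control cortex, control cord was higher for 3 (Meis1, log2 change 3.14, SE 0.16; Pbx3, 2.43, SE 0.12; Pknox1, 0.69) and lower for 3 (among them Pknox2, -1.30, and Meis3, -0.51). Pbx2, Pbx4 and Meis2 did not pass. Over all genes tested 20.8% were called higher and 20.6% lower in this comparison. Of 29 regulator genes 24 were tested, and Cdx1, Cdx2, Cdx4, Cyp26a1 and Cyp26c1 were too low. Between genotypes 0 of the 24 were called (lowest adjusted p = 0.747). Without heterozygous library 1 there was 1, Egr2, a hindbrain regulator that Schwann cells also express, with a log2 change of 1.69 (SE 0.25, edgeR adjusted p = 0.0132) against 1.17 (SE 1.01, adjusted p = 0.902) with all libraries. Over all genes the fit without heterozygous library 1 called 399 higher and 244 lower, against 18 and 1 with all libraries. Heterozygous library 1 had the lowest Schwann cell sum, and the part of this in the Egr2 value was not tested. Between control cord and control cortex 1 regulator was higher, the histone demethylase Kdm6b (log2 change 0.49), and 5 were lower, among them Rnf2 (-0.87), Rara (-0.65) and Ctcf (-0.35). Of the 24 tested, these counts compare with the same 20.8% higher and 20.6% lower over all genes, so the lower count was near that background.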

How the data were processed

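Per the study's methods, the authors used Trimmomatic 0.30 for trimming, HISAT2 2.0.1 for alignment (mm10) and HTSeq 0.6.1 for counts per gene. The deposited values are raw counts, in 1 table for cerebellum and 1 for cortex and spinal cord. The HTSeq mode, strand setting and annotation release are not given in the sources used here. Each library gave from 12835400 to 25490124 counts. Groups came from the labels (WT, here control, and OE, here heterozygous, by tissue and age).

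Counts were scaled by TMM factors within each table (edgeR 4.0.16, R 4.3.3) to CPM, and divided by the merged exon length of GENCODE M21, which held 98.2% of the gene IDs, for CPM per kb. Groups were compared with the robust quasi-likelihood test of edgeR over all genes past filterByExpr (minimum count 10, minimum total 15), with Benjamini-Hochberg adjustment over all genes tested. A gene was called at an adjusted p under 0.05 and an absolute log2 fold change over 0.2. The standard error is the absolute log2 fold change over the square root of F. Fits were tested on simulated data. DESeq2 1.42.0 and its size factors, no filter, no fold threshold, a replicate block, scaling by total counts, the longest transcript and leaving out each library were tried, as were 1 fit over 12 libraries, leaving out 2 cord libraries and, for ratios of reads, leaving out control cortex library 2, all chosen after seeing the data.

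Named genes were those whose groups did not overlap, those with the largest changes between genotypes, and the 6 with the most reads. Hoxc8, Hoxd10, Hoxa13, Hoxb13 and single noncoding transcripts were added after their values were seen. A few genes of these lists are not reported here. The Hox genes and the cofactor, regulator and marker lists were chosen with earlier results of these data known. Markers were summed as CPM. Promoter and microRNA sequences are from RefSeq (GRCm38.p6).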

Additional observations from a re-analysis of the deposited data

How the results depend on the processing

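The counts of Hox genes called kept their side of the threshold under every alternative run. For genotype in the cord 0 were called throughout. There, no gene of any kind was called without control library 1 or 2 or heterozygous library 2 or 3. The fits over 12 libraries and without 2 cord libraries called none either, so 0 Hox calls was assured in all those runs. Between cord and cortex 32 were called in controls and 33 in heterozygous mice with DESeq2, its size factors or a replicate block, and 33 and 36 without the filter. Leaving out 1 library gave 30 to 34 and 32 to 34. Where the filter was used, these genes passed it through the cord alone. The shares over all genes in these alternative fits are not given here. The counts are therefore not read as a result about Hox genes. Over all genes the cord genotype calls were 18 higher and 1 lower, and became 58 and 15 with DESeq2, 186 and 58 without the filter, 40 and 3 with a replicate block, 0 and 0 in 1 fit over 12 libraries or without control library 1 and heterozygous library 3, and 0 to 399 and 0 to 244 when 1 library was left out. The 399 and 244 came from the fit without heterozygous library 1. The cause of these shifts was not tested. Regulators called between genotypes ranged from 0 to 1 when 1 library was left out, with 1 only without heterozygous library 1. The log2 change turned for 8 of the 34 genes without control library 1, for 5 without heterozygous library 3 and for 12 without both. Without both, these included Hoxc13 (1.40 to -0.25), Hoxc12 (0.99 to -0.11) and Hoxc11 (0.43 to -0.17). Hoxd11 (0.42 to -0.15), Hoxc8 (-0.29 to 0.069) and Hoxb8 (0.00 to -0.11) were also among them. For the caudal genes and Hoxc8 the libraries left out hold the extreme values, so the shift is by construction. The log2 change of Hoxc11 was -0.028 without control library 1 and ranged from -0.028 to 1.19 when 1 was left out. With the longest transcript as length, groups 3, 4, 6, 7 and 9 moved to 13.1, 20.0, 49.7, 52.4 and 79.2 CPM per kb. The edgeR fit with a replicate block gave a lowest adjusted p of 0.250 for a Hox gene in cord. Without the filter the lowest in edgeR was 0.0634, for Hoxa13 (log2 change 3.93). Hoxa13 had 18 reads in heterozygous library 3 and at most 4 in any other cord library. Deviations from group means correlated from -0.04 to 0.15 between same-numbered cord libraries of the genotypes, against -0.13 to 0.14 between others. That shows no pairing by number but cannot exclude it. Between heterozygous cord and cortex they correlated from 0.0307 to 0.0667 for same numbers, against -0.0661 to 0.0306 for others. In controls the ranges were -0.102 to -0.0182 and -0.0787 to 0.0912. The labels do not say whether cord and cortex of 1 number came from the same mouse, and the main tests took them as unpaired. Cerebellar groups share no numbers. Depth limits every brain value, which rests on at most 9 reads per gene and library.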
